A study of Mus musculus with 18 samples.

Results

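The 31 genes described here act in glycolysis, in lactate production and transport, in glycogen storage, or belong to the targets of hypoxia-inducible factor (HIF) and related stress genes. They were taken by symbol from a mouse cDNA array on which 10225 named genes had spots, and all 31 were among the 6945 named genes that could be tested. Of the 31, 25 had a value on every array, 16 rested on 1 spot and 15 on several spots, which were averaged. By role, 9 act in glycolysis, 4 in lactate handling and 5 in glycogen metabolism, and 13 are HIF targets or related genes.

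The series holds 18 arrays of hearts of mice kept under chronic constant hypoxia (CCH), chronic intermittent hypoxia (CIH) or control conditions for 1, 2 or 4 weeks, with 2 arrays for each of the 9 groups and so 6 arrays per condition. Strain, age and oxygen level are not given in the sources used here. On each array, Cy5-labelled cDNA of a male heart met Cy3-labelled cDNA of a female heart of the same condition. A value is therefore the log2 ratio of the male to the female signal of a spot, and a comparison of conditions asks whether that ratio changed, not in which sex the transcript changed. A parallel response of both sexes leaves no trace in these values.

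When oxygen falls, cells slow mitochondrial respiration and draw more of their ATP from glycolysis, which ends in lactate. HIF, a transcription factor whose alpha subunit is destroyed when oxygen is plentiful, raises the transcription of most glycolytic enzymes, of lactate dehydrogenase A and of lactate export. The working heart normally burns fatty acids and takes up lactate as fuel, and it holds glycogen as a reserve.

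HIF binds a core of 5 letters, ACGTG or GCGTG on either strand (CACGT or CACGC when read on the other), where CACGTG counts as a match on both. Of the 7 genes whose ratio stood away from 0 over all arrays, 4 had a single RefSeq promoter entry. They are printed here as the 250 bases before the annotated transcription start on build GRCm38.p6, with the core in capitals.
Mif, chr10:75860278-75860527, minus strand: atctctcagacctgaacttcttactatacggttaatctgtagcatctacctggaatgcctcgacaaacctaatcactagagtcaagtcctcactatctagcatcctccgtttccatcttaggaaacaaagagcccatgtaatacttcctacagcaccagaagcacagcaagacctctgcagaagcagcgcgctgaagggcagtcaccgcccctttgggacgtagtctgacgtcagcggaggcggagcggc
Plin2, chr4:86670060-86670309, minus strand: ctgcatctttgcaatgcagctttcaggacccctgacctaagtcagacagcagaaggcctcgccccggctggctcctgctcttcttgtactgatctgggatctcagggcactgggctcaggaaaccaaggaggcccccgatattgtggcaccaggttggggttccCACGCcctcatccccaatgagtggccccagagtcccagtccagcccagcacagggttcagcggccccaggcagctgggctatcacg
Cited2, chr10:17722978-17723227, plus strand: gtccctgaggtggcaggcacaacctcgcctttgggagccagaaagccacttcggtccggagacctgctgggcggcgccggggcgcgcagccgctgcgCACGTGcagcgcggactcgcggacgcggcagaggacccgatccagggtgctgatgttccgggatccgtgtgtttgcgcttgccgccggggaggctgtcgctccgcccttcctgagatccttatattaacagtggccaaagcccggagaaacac
Slc16a3, chr11:120948817-120949066, plus strand: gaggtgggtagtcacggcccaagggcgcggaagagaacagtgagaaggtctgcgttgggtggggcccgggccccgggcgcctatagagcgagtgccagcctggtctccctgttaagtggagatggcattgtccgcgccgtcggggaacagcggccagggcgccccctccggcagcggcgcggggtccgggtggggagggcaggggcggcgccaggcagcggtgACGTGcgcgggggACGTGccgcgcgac
The window of Slc16a3 held the core at 2 places, that of Cited2 held 1 CACGTG, that of Plin2 held 1 CACGC, and that of Mif held none of these letters. A promoter entry existed for 27 of the 31 genes, and 25 of these (92.6%) had the core in at least 1 window, against 62.9% of the genes tested and 41.5% of all genes with an entry. Counted by window, 35 of 42 windows of the 31 genes (83.3%) held it, against 56.4% of the windows of genes tested and 38.6% of all windows. The 31 genes were listed for roles that include HIF targets, and windows of a gene can overlap. A match describes letters and was not measured as binding.

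The labels name the dyes but not which signal is the numerator. Ratios were read as male over female because the Y-linked gene Eif2s3y was above 0 on 17 of 18 arrays; it was -0.03 on CIH 4 weeks replicate 1. CIH 1 week replicate 1 is given 1 week of CIH in its title and 2 weeks of CCH in its source names, and was grouped by its title. Control 2 weeks replicate 1 holds the code 1A in its title, as control 1 week replicate 1 does. It was kept as a 2-week control. Fits without the arrays in doubt left out only CIH 1 week replicate 1 and CIH 4 weeks replicate 1. Where control 2 weeks replicate 2 is left out, control 2 weeks replicate 1 alone stands for the 2-week controls. Arrays correlated with each other between -0.53 and 0.74 over all spots with a value on both, and 12 of 153 pairs fell below -0.3. Control 2 weeks replicate 2 stood apart for the genes described here: 10 of the 31 had their lowest value there, their median was -0.32, and the median of the cardiomyocyte markers was -0.71. With all males in Cy5 and all females in Cy3, sex and dye cannot be told apart in a ratio set against 0. The labels do not say whether replicate arrays used different animals, so a p-value here measures array-to-array spread that may be technical. In whole hearts, fewer cells of a type and less RNA per cell cannot be told apart.

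**Figure D1:**
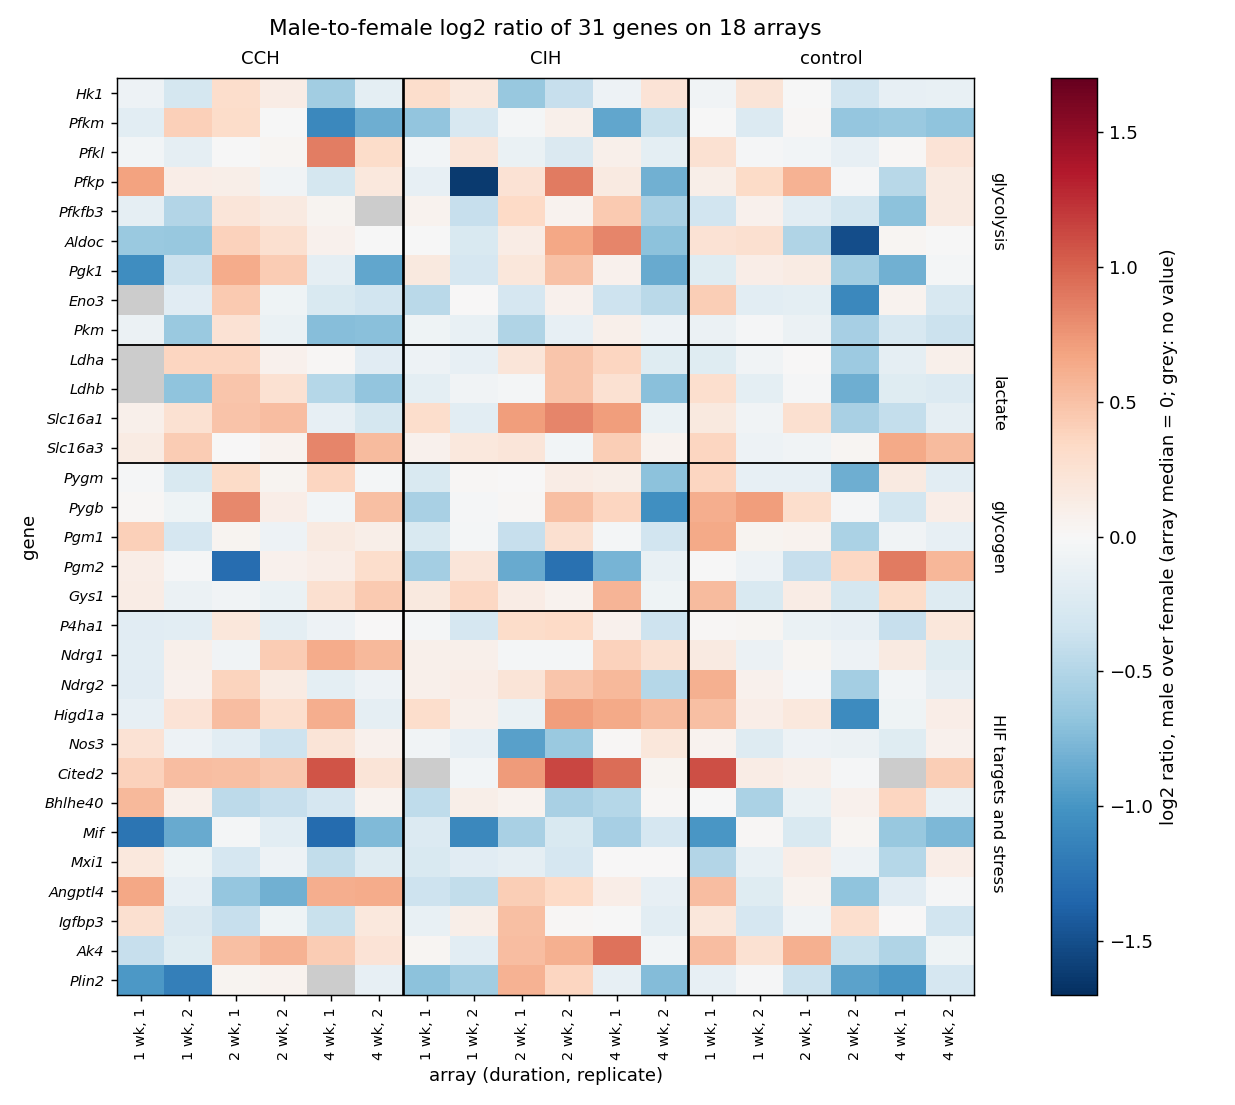
Male-to-female log2 ratio of the 31 genes (rows, by role) on each of the 18 arrays (columns, by condition, duration in weeks and replicate), centred on the median of each array. The row of Mif is blue on 16 arrays, and in the column of control 2 weeks replicate 2 all 9 glycolytic genes lie below 0.

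Neither kind of hypoxia changed the male-to-female ratio of any of the 31 genes past the threshold, an adjusted p of 0.05 over all 10272 genes and unnamed spots tested. In CCH hearts against control hearts, 0 of 31 genes passed in limma's moderated test and 0 of 31 had an unadjusted p under 0.05, where 0% of all units were called and 649 units had such a p. Genes of lactate handling lay highest as a group in CCH hearts, with a median difference of 0.19 over 4 genes. A positive difference was seen for 21 of the 31 genes, beside 42.9% of all units. The 31 differences ran between -0.34 for Pgm2 and 0.32 for Ldha, with a median of 0.06, beside -0.04 over all units. The value of Pgm2 was -0.11 without CCH 2 weeks replicate 1 and -0.22 without control 2 weeks replicate 2. Standard errors of the 31 genes lay between 0.12 and 0.25 on the log2 scale, which sets what these arrays could resolve.

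Ldha, the lactate dehydrogenase subunit that favours lactate formation, had a lowest ratio of -0.19, a median of 0.07 and a highest of 0.37 over 5 CCH arrays, against -0.61, -0.10 and 0.08 over 6 control arrays. The groups overlapped, and the lowest control value came from control 2 weeks replicate 2. Its difference was 0.32 ± 0.16 (SE; adjusted p = 0.749, limma). Ndrg1, a stress-responsive gene that rises in many cells under low oxygen, had a lowest ratio of -0.18, a median of 0.25 and a highest of 0.63 in CCH hearts, against -0.20, -0.02 and 0.15 in control hearts. Both 4-week CCH arrays and CCH 2 weeks replicate 2 lay above every control array, and the 1-week arrays lay among the controls. The difference of Ndrg1 was 0.25 ± 0.12 (SE; adjusted p = 0.749, limma). Slc16a1 encodes the monocarboxylate transporter that carries lactate into heart muscle, and its difference was 0.28 ± 0.17 (SE; adjusted p = 0.749, limma), or 0.14 without control 2 weeks replicate 2. On the lower side, Mif differed by -0.30, Pgm2 by -0.34 and Pkm by -0.10.

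CIH hearts gave larger differences for 2 genes, neither past the threshold. In CIH hearts against control hearts 0 of 31 genes passed (limma), where 0.00974% of all units were called, and 2 of 31 had an unadjusted p under 0.05, as did 1307 of the 10272 units. Those were Pgm2 and Slc16a1. The 31 differences had a median of 0.08, beside -0.01 over all units, and 21 were positive, beside 49.1% of all units. The lactate genes again had the highest median of the 4 roles, at 0.21, and the glycogen genes the lowest, at -0.13. Without control 2 weeks replicate 2 these medians were 0.09 and -0.23, and that of the HIF group was 0.08, next to the lactate genes.

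Pgm2 is a relative of phosphoglucomutase known in human as a phosphopentomutase, and its symbol and that of Pgm1 were exchanged in older mouse nomenclature. Its ratio had a lowest value of -1.27, a median of -0.68 and a highest of 0.20 in CIH hearts, against -0.39, 0.17 and 0.89 in control hearts. The groups overlapped through CIH 1 week replicate 2, the only CIH array above 0, and CIH 4 weeks replicate 2. The difference was -0.79 ± 0.23 (SE), a ratio 0.579 times that of controls (95% interval 0.413 to 0.812; adjusted p = 0.107, limma). It passed the threshold when CCH 2 weeks replicate 1 or replicate 2 was left out (adjusted p = 0.0346 and 0.0344, limma), arrays that enter the fit only through the shared estimate of the spread. Without CIH 1 week replicate 1 and CIH 4 weeks replicate 1, the arrays whose labels or Eif2s3y value are in doubt, the difference was -0.55 (adjusted p = 0.831, limma).

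Slc16a1 had a lowest ratio of -0.18, a median of 0.50 and a highest of 0.83 in CIH hearts, against -0.55, -0.10 and 0.27 in control hearts. The lowest control value came from control 2 weeks replicate 2. Of the 6 CIH arrays, 4 lay above every control array, and CIH 1 week replicate 2 and CIH 4 weeks replicate 2 lay among the controls. The difference was 0.50 ± 0.17 (SE), a ratio 1.41 times that of controls (95% interval 1.1 to 1.82; adjusted p = 0.208, limma). Among the arrays above every control were CIH 1 week replicate 1, at 0.29, and CIH 4 weeks replicate 1, at 0.72, the arrays in doubt. Without both, the median of the 4 lactate genes for CIH minus control was 0.08, beside 0.21 with all arrays. Higd1a encodes a small protein of the inner mitochondrial membrane that rises under low oxygen, and it differed by 0.40 ± 0.22 (SE; adjusted p = 0.44, limma). Its lowest control value of -1.07 came from control 2 weeks replicate 2, and without that array the difference was 0.19. Ldha differed by 0.26, and by 0.16 without the same array. On the lower side were Pygb, the brain form of glycogen phosphorylase, at -0.36, and Nos3, the nitric oxide synthase of endothelium, at -0.18.

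Control 2 weeks replicate 2 also bore on the group as a whole. Without it the median of the 31 genes was -0.01 for CCH minus control, with 13 positive differences, and 0.02 for CIH minus control, with 16 positive. The red cell markers moved in the same comparison: 13 of 24 listed could be tested, their median was -0.84 for CIH minus control and -0.23 for CCH minus control, and 0 of 13 passed in either (limma), with 7 and 1 of 13 at an unadjusted p under 0.05. The median of the 6 cardiomyocyte markers tested was 0.21 for CIH minus control and 0.19 for CCH minus control, with 0 of 6 past the threshold (limma) and 0 of 6 at an unadjusted p under 0.05. The part of red cells or of cardiomyocyte content in the differences of the 31 genes was not tested.

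**Figure D2:**
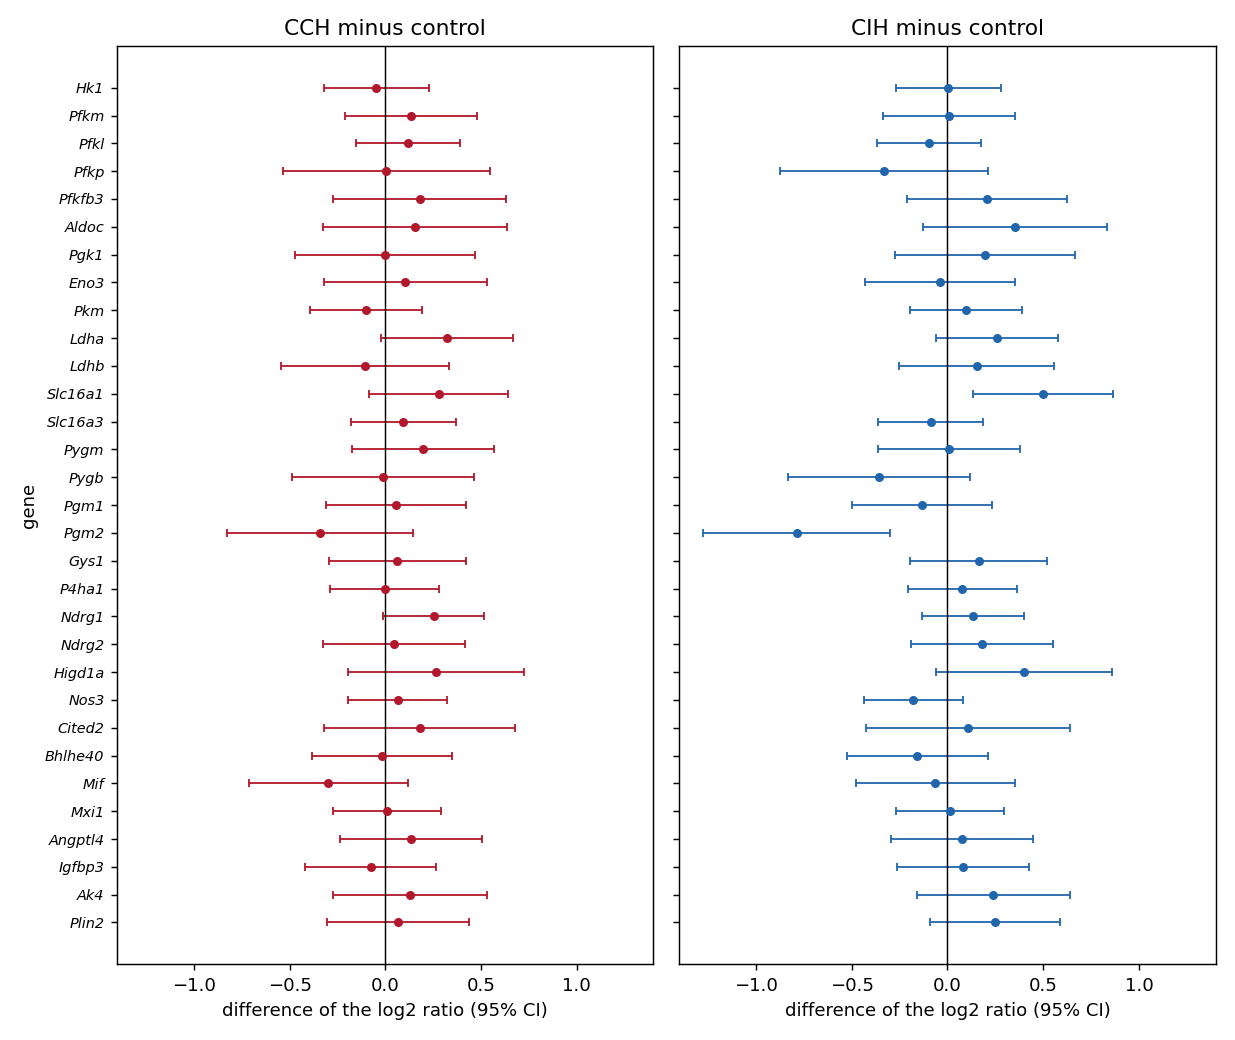
Difference of the male-to-female log2 ratio between CCH and control hearts (left) and between CIH and control hearts (right) for each of the 31 genes, as the mean over 3 durations (points) with its 95% interval from limma (bars). All 31 intervals include 0 on the left, and all but those of Pgm2 and Slc16a1 include 0 on the right.

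Set directly against each other, CCH and CIH hearts differed past the threshold for 0 of 31 genes (limma), where 0.00974% of all units were called, and 0 of 31 had an unadjusted p under 0.05, against 953 of 10272 units. The highest difference was that of Pgm2, 0.45 ± 0.23 (SE; adjusted p = 0.584, limma), and the lowest that of Ldhb, the lactate dehydrogenase subunit abundant in heart, at -0.26 ± 0.20 (SE; adjusted p = 0.774, limma). Nos3 differed by 0.24, Pfkl, the liver form of phosphofructokinase, by 0.21, Pkm, pyruvate kinase, by -0.20 and Slc16a1 by -0.22. The intervals of the 31 genes reached as far as -0.70 and 0.93. A difference between the kinds of hypoxia of that size in single genes is not excluded by a p that misses the threshold. The values of CCH and CIH against control share the same control arrays and are not independent of each other.

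At single durations, 0 of 31 genes passed in any of the 6 comparisons of CCH or CIH with control, each of 2 arrays against 2 with the spread taken from all groups. In limma the share of all units called was 0% at 1 and 4 weeks for both kinds of hypoxia, 0.0195% for CCH at 2 weeks and 0.00974% for CIH at 2 weeks. The 2-week comparisons had 7 of 31 genes with an unadjusted p under 0.05 for CCH (964 units) and 9 of 31 for CIH (2331 units). Each comparison at 1 and 4 weeks had 2 of 31. The units with such a p there were 632 and 1549 for CCH and 240 and 836 for CIH. Without control 2 weeks replicate 2 the 2-week counts were 1 of 31 for CCH and 2 of 31 for CIH. The median of the 31 genes at 2 weeks was 0.38 for CCH and 0.35 for CIH with that array, and 0.15 and 0.06 without it. The medians of the 6 cardiomyocyte markers tested were 0.59 and 0.71 in the same comparisons, with 0 of 6 called (limma) and 2 and 4 of 6 at an unadjusted p under 0.05, and their part in the differences was not tested. Aldoc, a form of aldolase best known from brain, differed by 1.34 for CCH and 1.39 for CIH at 2 weeks (adjusted p = 0.498 and 0.117, limma). Its control ratios at 2 weeks were -0.51 and -1.50, and -1.50, on control 2 weeks replicate 2, was the lowest value of Aldoc on any array. Without that array the differences were 0.84 and 0.90. Whether the difference between hypoxic and control hearts changed over the 3 durations was tested with limma's F test, which called 0 of 31 genes and 0% of all units. Its smallest adjusted p among the 31 was 0.36, for Plin2, and 5 of 31 had an unadjusted p under 0.05, as did 1332 units.

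Hearts at 2 weeks and 1 week of hypoxia were compared after the data were seen. Over CCH and CIH together, the ratio of Plin2 rose and that of Nos3 fell at 2 weeks against 1 week. These 2 of 31 genes (6.45%), 1 higher and 1 lower, passed the threshold in limma, below the 10.9% called over all units (4.67% higher and 6.25% lower). The median difference of the 31 genes was 0.25, beside -0.02 over all units, and 22 were positive, beside 48.8% of all units. By role, 7 of 9 glycolytic, 3 of 4 lactate, 9 of 13 HIF group and 3 of 5 glycogen genes were positive. The median of the glycogen genes was 0.005. The 6 cardiomyocyte markers tested had a median difference of 0.35, with 0 of 6 called (limma) and 0 of 6 at an unadjusted p under 0.05. Medians on single arrays were taken over all listed cardiomyocyte markers with a value there, between 5 and 9 per array. These were 0.25 and 0.23 in CCH hearts and -0.06 and 0.16 in CIH hearts at 2 weeks, against -0.18 and 0.10 in CCH hearts and 0.05 and 0.02 in CIH hearts at 1 week.

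Plin2 coats the lipid droplets in which heart muscle stores fat, and it is a known HIF target in other cells. Its ratios were 0.04 and 0.06 in CCH hearts and 0.59 and 0.36 in CIH hearts at 2 weeks, against -0.98 and -1.16 in CCH hearts and -0.70 and -0.59 in CIH hearts at 1 week. Every 2-week array lay above every 1-week array, under both kinds of hypoxia. The difference was 1.12 ± 0.19 (SE), a ratio 2.18 times that at 1 week (adjusted p = 0.0249, limma). At 4 weeks the ratio was -0.14 on the 1 CCH array with a value and -0.14 and -0.73 on the CIH arrays. In control hearts the ratios were -0.36 and -0.92 at 2 weeks, against -0.14 and -0.01 at 1 week, the reverse order.

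For Plin2 the change under hypoxia minus the change in controls was 1.68 ± 0.34 (SE; adjusted p = 0.192, limma), which did not pass. In that test of the difference 0 of 31 genes and 0% of all units were called, with 11 of 31 and 2095 units at an unadjusted p under 0.05. Without control 2 weeks replicate 2 that count was 2 of 31, and the value of Plin2 was 1.41. The cardiomyocyte markers had a median of 0.92 in this test, with 0 of 6 called (limma) and 3 of 6 at an unadjusted p under 0.05, and their part was not tested. The call of Plin2 under hypoxia was lost when CCH 1 week replicate 1, CCH 2 weeks replicate 1, CIH 1 week replicate 2 or CIH 2 weeks replicate 2 was left out (adjusted p = 0.11, 0.112, 0.0924 and 0.102, limma), while the difference stayed between 1.13 and 1.18. Of 8 adipocyte markers listed, 2 could be tested in the same comparison, with a median of -0.72. Lep, the hormone of fat cells, was called lower among them.

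Nos3 makes the nitric oxide that relaxes vessels. Its ratios were -0.19 and -0.35 in CCH hearts and -0.93 and -0.63 in CIH hearts at 2 weeks, against 0.25 and -0.09 in CCH hearts and -0.05 and -0.14 in CIH hearts at 1 week. The 2-week arrays all lay below the 1-week arrays, with the CIH arrays lowest, and at 4 weeks all 4 hypoxic arrays were between 0.02 and 0.22. The difference was -0.51 ± 0.15 (SE; adjusted p = 0.0434, limma). In controls the ratios at 2 weeks were -0.09 and -0.10, against 0.06 and -0.22 at 1 week. The call was lost without any 1 of 9 arrays, namely CCH 1 week replicate 1, both CIH 1 week arrays and all 2-week arrays. Leaving out both arrays in doubt lost the call as well. It was also lost with CIH 1 week replicate 1 grouped by its source names (adjusted p = 0.0746), after quantile normalization (0.107), after scaling arrays to 1 spread (0.116) and with a replicate block (0.0501, all limma). Of the 9 endothelial markers tested, Nos3 among them, Nos3 was the only one called in limma, and their median was -0.16.

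The next genes in order of p lay just above the threshold in the main fit. Ak4, a mitochondrial adenylate kinase, had 0.52 and 0.59 in CCH hearts and 0.52 and 0.61 in CIH hearts at 2 weeks, against -0.39 and -0.20 in CCH hearts and 0.04 and -0.18 in CIH hearts at 1 week. The 4 arrays at 2 weeks lay close together and above all 4 at 1 week, and the difference was 0.74 ± 0.23 (SE; adjusted p = 0.051, limma). Ak4 passed with array weights (adjusted p = 0.0153), without centring (0.0489) and with only units on all arrays (0.0482, all limma). Pgk1, the phosphoglycerate kinase of the first ATP-forming step of glycolysis, differed by 0.82 ± 0.27 (SE; adjusted p = 0.0585, limma). With array weights it passed (adjusted p = 0.0173, limma). Ak4, Pgk1 and Pgm2 each passed in some fits with arrays left out. Pgm2 differed by -0.77, Aldoc by 0.74, Ldhb by 0.69, Mif by 0.60, Slc16a1 by 0.52 and Bhlhe40, a repressor of transcription induced by HIF, by -0.41, with adjusted p from 0.0767 to 0.175 (limma).

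Of the 31 genes, 9 (29.0%) had 2-week and 1-week arrays that did not overlap under hypoxia, against 23.9% of all units. These were Pfkfb3, Aldoc, Pgk1, Ldhb, Slc16a1, Ndrg2, Nos3, Ak4 and Plin2. In controls, with 2 arrays against 2, 10 of 31 (32.3%) did not overlap, against 38.4% of all units. The red cell markers lay lower at 2 weeks of hypoxia than at 1 week, with a median difference of -0.95 over 13 tested genes and 4 of 13 called lower, namely Ermap, Hba-x, Hbb-bh1 and Slc4a1. The medians on single arrays, over all listed red cell markers with a value there, were -1.31 and -0.05 in CCH hearts and -0.75 and -1.47 in CIH hearts at 2 weeks, against 0.45 and 0.19 in CCH hearts and -0.46 and 0.10 in CIH hearts at 1 week. The part of red cell transcripts in these differences was not tested.

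**Figure D3:**
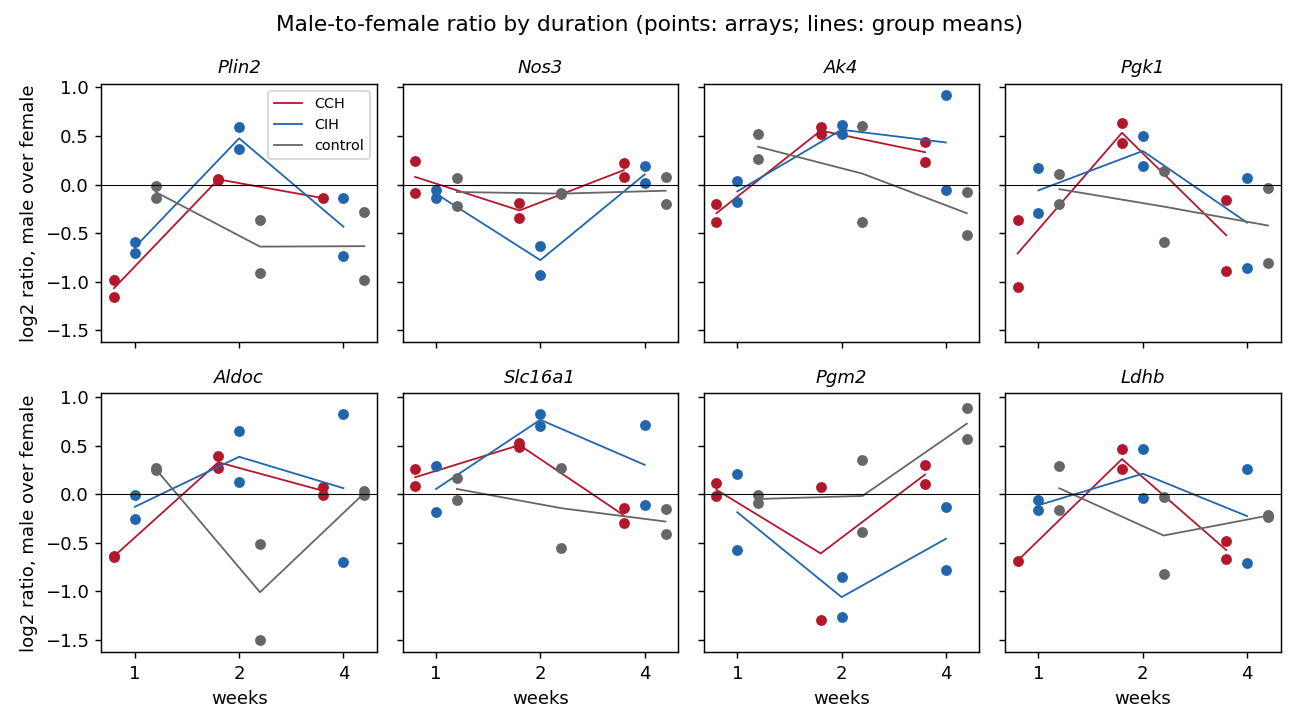
Male-to-female log2 ratio of 8 of the 31 genes at 1, 2 and 4 weeks in CCH, CIH and control hearts; points are arrays and lines join group means. For Plin2, Ak4 and Pgk1 the hypoxic arrays at 2 weeks lie above those at 1 week, and for Nos3 they lie below.

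Between 4 weeks and 1 week of hypoxia 0 of 31 genes passed (limma), where 0% of all units were called, and 4 of 31 had an unadjusted p under 0.05, as did 1334 units. Pfkm, the muscle form of phosphofructokinase, differed by -0.62 ± 0.20 (SE; adjusted p = 0.301, limma). Its ratios were -1.10 and -0.82 in CCH hearts and -0.88 and -0.38 in CIH hearts at 4 weeks, against -0.18 and 0.41 in CCH hearts and -0.66 and -0.27 in CIH hearts at 1 week. The CCH arrays of the 2 durations stood apart and the CIH arrays overlapped. Control hearts had -0.63 and -0.69 at 4 weeks, against 0.00 and -0.23 at 1 week, a difference of -0.55 ± 0.28 (SE; adjusted p = 0.936, limma) close to that under hypoxia. Ndrg1 differed by 0.44, Plin2 by 0.57 and Ak4 by 0.57. On the lower side, Bhlhe40 and Hk1, a hexokinase, followed Pfkm in order of p. Only Ndrg1 had arrays that did not overlap, 1 of 31 (3.23%) against 3.78% of all units. In controls, 4 weeks against 1 week, 0 of 31 genes and 0% of all units were called (limma; smallest adjusted p of the 31, 0.936), and 0 of 31 genes and 459 units had an unadjusted p under 0.05. There, age and the length of the control period cannot be told apart. Controls at 2 weeks against 1 week likewise gave 0 of 31 genes and 0% of all units (limma; smallest adjusted p of the 31, 0.92), with 3 of 31 genes and 555 units at an unadjusted p under 0.05.

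Over all 18 arrays, whatever the condition, 7 of the 31 genes had a male-to-female ratio away from 0. Mif, Plin2, Pfkm, Pkm and Mxi1 were lower in the male Cy5 than in the female Cy3 channel, and Cited2 and Slc16a3 were higher. The 7 genes (22.6%) compare with 27.7% of all units called in limma, 8.99% higher and 18.7% lower, so the share was near the background. In controls alone the test of the ratio against 0 called 0 of 31 genes and 0.00974% of all units (limma), with an unadjusted p under 0.05 for 5 of 31, namely Plin2, Pfkm, Mif, Slc16a3 and Pkm, and for 940 units. The median of the 31 genes was -0.04 over all arrays, and that of all units was also -0.04. Among marker lists, 7 of 11 leukocyte and macrophage markers were called lower and 0 higher (limma), namely C1qa, C1qb, Cd68, Cd79a, Fcer1g, Lyz2 and Tyrobp. Their median was -0.28, and on single arrays the median of the list lay between -0.69 and -0.09 in CCH hearts and between -0.59 and -0.14 in CIH hearts, against between -0.55 and 0.12 in control hearts. The part of these cells in the ratio of Mif or of the other lower genes was not tested. Of the remaining marker lists, the genes called lower were Atp2a1 and Myl1 of skeletal muscle, Rhag of red cells and Emcn of endothelium, and Col3a1 and Dcn of fibroblasts were called in opposite directions.

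Mif, a cytokine released by heart muscle under ischaemia, had the ratio farthest from 0. It had a lowest value of -1.31, a median of -0.81 and a highest of -0.03 in CCH hearts, and of -1.10, -0.42 and -0.23 in CIH hearts, against -0.99, -0.45 and 0.04 in control hearts. All 12 hypoxic arrays lay below 0, as did 4 of 6 control arrays. The mean over the 9 groups was -0.55 ± 0.08 (SE), a male signal 0.681 times the female one (95% interval 0.606 to 0.766; adjusted p = 0.000464, limma), and its 2 spots gave -0.57 and -0.54. Leaving out any 1 array kept it between -0.61 and -0.50.

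Among glycolytic enzymes, Pfkm had a mean of -0.32 ± 0.07 (SE; adjusted p = 0.00394, limma) and was below 0 on 14 of 18 arrays. Pkm, which forms pyruvate in the last step of glycolysis, had a mean of -0.24 ± 0.06 (SE; adjusted p = 0.00738, limma) and was below 0 on 16 of 18 arrays. Of the other forms of phosphofructokinase, Pfkl averaged 0.06 and Pfkp, the platelet form, 0.00, neither past the threshold (adjusted p = 0.425 and 0.979, limma). The forms were not tested against each other. Pfkp also had the widest range of the 31 genes, between -1.62 on CIH 1 week replicate 2 and 0.88 on CIH 2 weeks replicate 2. Of the remaining 5 glycolytic genes, Pgk1, Aldoc, Hk1 and Eno3, the muscle enolase, had means below 0, as did Pfkfb3, which makes the activator of phosphofructokinase, with adjusted p from 0.0934 to 0.559 (limma).

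Of the lactate genes, Slc16a3, a transporter that exports lactate from glycolytic cells, was above 0 on 15 of 18 arrays. Its lowest, median and highest ratios were 0.01, 0.28 and 0.84 in CCH hearts and -0.04, 0.12 and 0.42 in CIH hearts, against -0.08, 0.20 and 0.65 in control hearts. The mean was 0.24 ± 0.05 (SE), a male signal 1.18 times the female one (adjusted p = 0.0051, limma). All 3 conditions overlapped, and the 3 highest values came from 4-week arrays of CCH and control hearts. The importer Slc16a1 averaged 0.14, Ldha 0.04 and Ldhb -0.18, none past the threshold. None of the 5 glycogen genes passed either: Gys1, the muscle glycogen synthase, averaged 0.11 and Pygb 0.11, against -0.06 for Pygm, the muscle glycogen phosphorylase, -0.02 for Pgm1, which interconverts glucose phosphates, and -0.16 for Pgm2.

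Cited2, which competes with HIF for its coactivator and so restrains it, was above 0 on 14 of 16 arrays with a value. Its lowest, median and highest ratios were 0.22, 0.48 and 1.07 in CCH hearts and -0.05, 0.72 and 1.14 in CIH hearts, against -0.02, 0.13 and 1.09 in control hearts. All 6 CCH arrays were above 0, and the control arrays other than control 1 week replicate 1 lay at or below 0.41. The mean over the 9 groups was 0.45 ± 0.10 (SE), a male signal 1.36 times the female one (adjusted p = 0.00597, limma). Plin2 averaged -0.35 ± 0.07 (SE; adjusted p = 0.0035, limma) and was below 0 on 13 of 17 arrays, the exceptions being the 4 hypoxic arrays at 2 weeks. Mxi1, an antagonist of Myc, averaged -0.15 ± 0.05 (SE; adjusted p = 0.0465, limma). Its call was lost when any 1 of 14 of the 18 arrays was left out, and without both arrays in doubt. The call was kept without CCH 1 week replicate 1, CCH 4 weeks replicate 2, control 1 week replicate 2 or control 4 weeks replicate 2. It was also lost with CIH 1 week replicate 1 grouped by its source names (adjusted p = 0.0597), after quantile normalization (0.0793), after scaling arrays to 1 spread (0.0769), with 1 spot per gene (0.055), with additive terms (0.0639) and with a replicate block (0.0508, all limma).

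The other 9 genes of the HIF group did not pass. Ak4 averaged 0.19 ± 0.08 (SE; adjusted p = 0.0743, limma), Higd1a 0.18, Ndrg1 0.12 and its relative Ndrg2 0.06. Nos3 averaged -0.12 and Bhlhe40 -0.11. Near 0 were P4ha1, the collagen prolyl hydroxylase, at -0.04, Igfbp3, a binding protein of insulin-like growth factors, at -0.03, and Angptl4, a secreted inhibitor of lipoprotein lipase, at -0.01. Angptl4 varied widely around that mean, between -0.82 on CCH 2 weeks replicate 2 and 0.66 on CCH 1 week replicate 1. Spots of a gene disagreed most for Eno3, with means of -0.43 and 0.10 and the same sign on 5 of 15 arrays, and for Igfbp3, with 0.11 and -0.17 and the same sign on 6 of 18 arrays.

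**Figure D4:**
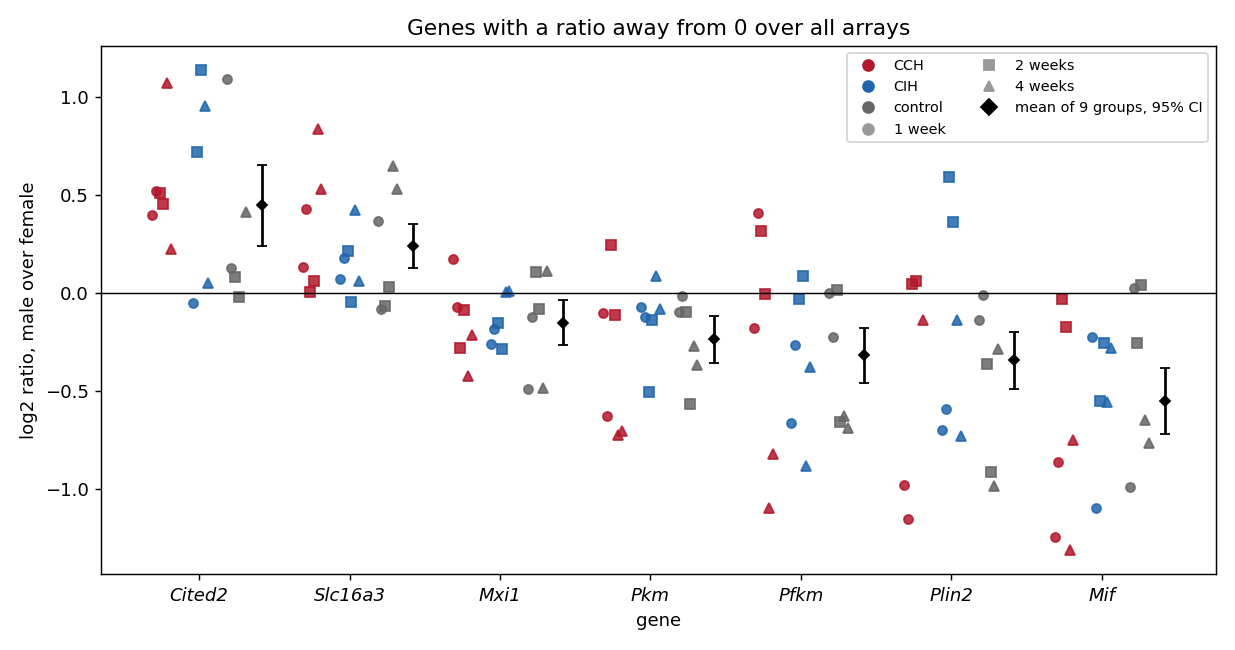
Male-to-female log2 ratio of the 7 genes called over all arrays; coloured points are single arrays by condition and duration, and black diamonds are the mean of the 9 groups with its 95% interval from limma. Mif lies below 0 on 16 of 18 arrays and Slc16a3 above 0 on 15 of 18, with the 3 conditions overlapping for every gene.

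Other listed genes of these pathways were tested in the same fit. Over all arrays, 0 of 7 other glycolytic genes tested were called (limma), and 2 of 7 had an unadjusted p under 0.05. Of all units, 27.7% were called there, 8.99% higher and 18.7% lower, and 41.1% had such a p. Of 11 other glycogen genes, 3 were higher in the male channel and 0 lower, namely Prkag2, a subunit of AMP-activated protein kinase, at 0.35, Phka1, a subunit of the muscle phosphorylase kinase, at 0.36, and Stbd1, a glycogen-binding protein, at 0.21. Of 26 other HIF targets, Insig2 and Wsb1 were higher, both at 0.20, and the chemokine Cxcl12 and the collagen lysyl hydroxylase Plod1 were lower, at -0.23 and -0.30. In CCH against control, CIH against control, CCH against CIH and 2 weeks against 1 week of hypoxia, 0 genes of these 3 lists passed (limma). Of all units, 10.9% passed in the last of these. Among the 7 glycolytic, 11 glycogen and 26 HIF target genes, some had an unadjusted p under 0.05. Their counts were 0, 1 and 0 for CCH against control (6.32% of all units) and 1, 1 and 2 for CIH against control (12.7%). For CCH against CIH they were 1, 0 and 3 (9.28%), and for 2 weeks against 1 week 3, 2 and 6 (36.1%). Bpgm, which makes bisphosphoglycerate in red cells and is also on the red cell list, came closest in CIH against control, at -1.20 (adjusted p = 0.0521, limma).

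**Figure D5:**
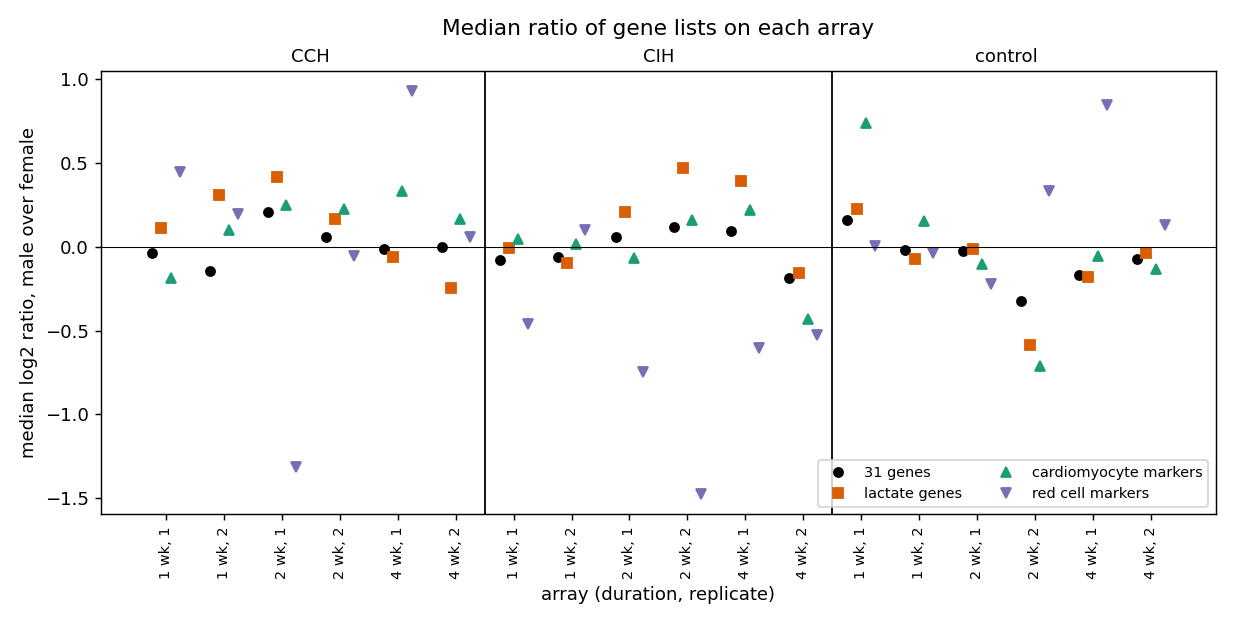
Median male-to-female log2 ratio on each of the 18 arrays for the 31 genes, their 4 lactate genes, cardiomyocyte markers and red cell markers. The medians of the 31 genes stay between -0.32 and 0.21, while those of the red cell markers reach -1.47 on CIH 2 weeks replicate 2.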

How the data were processed

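The deposited table holds, for each of 18 2-colour arrays, log2 ratios of the Cy5 (male) and Cy3 (female) signals of 28704 spots; base 2 follows from the values, since the linear ratio averages 1 on every array. Dyes and slides are per the labels; scanning, background correction and normalization are not given in the sources used here. Between 12650 and 24512 spots per array have a value, and the number of arrays limits the precision. Of the spots, 18511 have 1 gene symbol, 937 several and 9256 none, per GEO's platform annotation, and 18267 matched the RefSeq table of GRCm38.p6.

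Each array was centred on its median, spots of a symbol were averaged, and limma 3.58.1 (R 4.3.3) was fitted to 9 group means with a moderated two-sided test. The 10272 units tested are 6945 named genes and 3327 single spots without a single symbol, and p-values were adjusted by Benjamini-Hochberg over all of them (threshold 0.05). The fit was tested on simulated data. Conditions were compared as the mean over 3 durations. All 31 genes are accounted for; those with values in full are the ones past the threshold and the 3 with the smallest p in each direction, plus Eif2s3y and called genes of the pathway lists; marker lists are given by counts and medians, with called genes named where they bear on a result. Where another member illustrates a result, such as Aldoc at 2 weeks, it was chosen after its values were seen. CIH 1 week replicate 1 was also grouped by its source names as an alternative. The members and lists were chosen with earlier results of these data known. Comparisons of 2 weeks with 1 week, and the fits without arrays in doubt or without control 2 weeks replicate 2 in full, were added after seeing the data. Motifs were searched on both strands of the 250 bases upstream. Figures were drawn with matplotlib 3.10.9.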

Additional observations from a re-analysis of the deposited data

Results flagged for a closer look

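Within each condition, the 6 arrays of a gene were examined for a single array far from the rest by Dixon's test, over 93 sets of a gene and a condition. It marked 3 sets, where about 1 in 20, or 4.7 sets, would be marked by chance, and the arrays of a condition span 3 durations. Pgm2 was -1.30 on CCH 2 weeks replicate 1, while the other CCH arrays lay between -0.02 and 0.30. Higd1a was -1.07 on control 2 weeks replicate 2, while the other control arrays lay between -0.07 and 0.51; 10 of the 31 genes had their lowest value on that array. Cited2 was 1.07 on CCH 4 weeks replicate 1, while the other CCH arrays lay between 0.22 and 0.52.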

How the results depend on the processing

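Each result was recomputed under other normalizations, filters, spot rules, weights, groupings and with each array left out. The count of 7 genes away from 0 over all arrays stayed between 5 and 8 with an array left out, was 10 without centring and 5 of the 25 genes with a value on all arrays. Under 2 weeks against 1 week of hypoxia the count of 2 became 1 after quantile normalization, 1 after scaling every array to the same spread and 8 with array weights. It ranged from 0 to 5 with an array left out: 0 without CCH 1 week replicate 1, CCH 2 weeks replicate 1, CIH 1 week replicate 2 or CIH 2 weeks replicate 2, and 5 without either CIH 4-week array. The hypoxia-minus-control change between 2 weeks and 1 week gave 2 genes with scaled arrays, single durations gave 1 with array weights, and CIH against control gave 0 to 1 with an array left out. The cause was not tested. With CIH 1 week replicate 1 grouped by its source names, Nos3 and Mxi1 lost their calls.

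Reversed values were that of Hk1 at 4 weeks against 1 week of hypoxia, 0.054 with 1 spot per gene, and, in controls at 2 weeks against 1 week with an array left out, those of Mif (between -0.13 and 0.88) and Bhlhe40 (between -0.007 and 0.52). Values of single genes were recomputed with other processing, with CIH 1 week replicate 1 regrouped, or without both arrays in doubt. Of these values, 617 kept direction and side of the threshold, 12 lost and 9 gained the threshold and 1 reversed. With 1 array left out these were 1056, 27, 16 and 2.

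Replicate numbers follow the letters of the titles, but the titles of CCH 1 week replicate 1 and CCH 2 weeks replicate 1 hold no letter. Deviations of replicate 1 from group means correlated between -0.56 and 0.46 over 36 pairs of groups, with a median of -0.02. These values do not settle whether arrays of the same number were paired. With the replicate numbers as a block, 6 genes were called over all arrays and 1 at 2 weeks against 1 week of hypoxia. With 2 arrays per group, small changes of the ratio cannot be resolved.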
